A study of Mus musculus with 9 samples.

Results

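Late-numbered miRBase entries are mouse miRNAs that entered the miRNA database late, here the 99 entries whose name carries a number of 1900 or higher, chosen by that number alone. They were 99 of the 722 entries in a table of liver exosome miRNAs (13.7%) and 99 of its 591 miRBase-named entries. Exosomes, small vesicles that cells release, had been collected from the medium of collagenase-treated liver pieces, and the miRNAs of 9 libraries were counted. The libraries fell into 3 groups of 3. The flox chow group held mice with loxP sites in both copies of Hsp90ab1 (the gene of the chaperone Hsp90β) on a chow diet, and the flox HFFC group held the same floxed mice on a diet rich in fat, fructose and cholesterol that causes steatohepatitis. The KO HFFC group held hepatocyte knockouts on the HFFC diet, in which the floxed gene was deleted by Cre recombinase under the Albumin promoter. The loxP sites were thus common to all 3 groups. The deletion was directed to hepatocytes, so exosomes of other liver cells should come from cells with an intact gene, which was not tested here. No knockout on chow was sequenced, and the labels give no ages. The study counts 3 mice per group, so each library was taken as 1 mouse, and the groups are called chow, floxed HFFC and knockout below.

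Most miRNAs are cut by Drosha and then Dicer from a hairpin in a longer transcript, and bases 2 to 8 of the mature strand, the seed, lead it to its targets. miRBase numbers follow the order of registration, so the abundant and conserved miRNAs of liver, such as miR-122 and let-7, carry low numbers. Late entries came largely from deep sequencing, and they include mirtrons (hairpins formed by a short spliced intron, whose 3p arm ends at the splice acceptor and which skip Drosha), pieces of small nucleolar RNAs (snoRNAs, guides for rRNA modification) and copies of the short interspersed repeats B1 and B2, which lie in many genes.

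Mature sequences were found for 87 of the 99 entries in RefSeq (GRCm38.p6). The 12 entries without one were miR-5099, miR-3470a, miR-1948-3p, miR-1948-5p, miR-7219-3p, miR-1949, miR-6983-3p, miR-3065-3p, miR-3074-1-3p, miR-6972-3p, miR-7212-5p and miR-3075-5p. The first set holds the 7 tested members with a sequence and miR-2137, the other member that had counts in all 9 libraries, since most values below are theirs. The seed is in capitals.
miR-6538: cGCGGGCUccggggcggcg
miR-5121: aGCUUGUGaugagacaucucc
miR-3535: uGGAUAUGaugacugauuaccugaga
miR-3470b: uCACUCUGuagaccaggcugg
miR-3068-5p: uUGGAGUUcaugcaaguucuaacc
miR-3074-2-3p: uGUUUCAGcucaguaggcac
miR-3084-5p: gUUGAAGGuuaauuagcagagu
miR-2137: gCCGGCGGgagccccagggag
These 8 seeds all differed. miR-6538 consists of G and C for 94.7% of its 19 bases and miR-2137 for 85.7% of its 21 bases, while miR-3084-5p has 36.4%. Over the 87 sequences the median GC content was 52.4%, against 45.5% in 411 miRBase-named entries of lower number, and the median length was 22 bases in both. The highest value among the late entries was 100%, in miR-5126, and the highest among the 411 others was 73.9%.

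The second set is the miR-3473 group, shown because miR-3473a was singled out by the study and because the counting may split reads among these 3 entries. The run of 14 bases that they share is in capitals, and it belongs to the start of the B2 repeat.
miR-3473a: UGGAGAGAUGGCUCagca
miR-3473b: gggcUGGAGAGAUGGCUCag
miR-3473e: gggcUGGAGAGAUGGCUCgua
miR-3473b and miR-3473e share the seed GGCUGGA, while the shorter miR-3473a starts 4 bases further in and has another seed. miR-3473a and miR-3473b agree over 16 bases without a mismatch. The hairpin of miR-3473a lies in an intron of Syap1 (chrX:162874918-162874995, minus strand, GRCm38), and that of miR-3473e in an intron of Rbks on chromosome 5. The 18 bases of miR-3473a also occur in annotated transcripts of 146 other genes in sense and 135 in antisense, and the 20 bases of miR-3473b in 344 and 390. miR-3470b, a piece of the B1 repeat, occurs in transcripts of 546 other genes in sense and 497 in antisense. Reads of these entries therefore cannot be assigned to 1 locus.

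The third set shows 4 examples of the mirtron-like 3p arms, with the last 2 bases in capitals. All 4 end in AG, whereas miR-6942-3p and miR-7034-3p, which also ended at an intron end, have CA there. The 3′ end of an intron is AG, and 12 of 28 late 3p entries with a placed hairpin ended within 1 base of an annotated intron end (42.9%), against 1 of 190 lower-numbered ones (0.526%).
miR-1982-3p: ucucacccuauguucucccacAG
miR-6978-3p: acggcuucacucucacccugcAG
miR-6921-3p: ugacuacuccuugccucucAG
miR-6946-3p: uuucuucucuucccuuucAG
The hosts of these 4 are Oaz1 (antizyme), C3 (complement component 3, made in hepatocytes), Srebf1 (the lipogenic factor SREBP-1) and Sec24c (a coat protein of secretory vesicles). Arms not shown had other hosts, among them Kif1c, Ankrd52, Cnot3, Cul4a and Zkscan3. AG was the ending of 11 of the 28 late 3p entries (39.3%) and of 10 of the 190 others (5.26%). The hairpins of miR-1981 in Marc2 and miR-1982 in Oaz1 spanned a whole intron within 3 bases, which holds for 4 of 79 late entries with a placed hairpin and for 2 of 387 others. Hairpins lay in an intron and touched no annotated exon on that strand, small RNA genes aside, for 53.2% of the 79 and 39.5% of the 387. The hairpin of miR-1982 also touched an exon of another Oaz1 transcript form and is not in that share. The counts of the mirtron-like arms were very low. The 12 entries that ended at an intron end had 24 counts together over 9 libraries, or 0.125% of the late counts, and no library had more than 5.

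Other late entries overlap snoRNAs. The sequences of 7 of 87 late entries lie within an annotated snoRNA (8.05%), as do those of 9 of 411 others (2.19%). miR-5121 lies in Snord33 inside Rpl13a, miR-3535 in the snoRNA Gm24148 inside Ncl (nucleolin), miR-3084-5p and miR-3084-3p in Snora19 and Gm23658, and miR-6516-5p in Gm26083 inside Snhg20. The hairpin Mir3068, source of miR-3068-5p and miR-3068-3p, is itself annotated among the snoRNAs. These 7 entries held 1782 counts, 37.9% of the late counts once miR-6538 was set aside. miR-6538 was different. Its hairpin (chr12:26414901-26415010, minus strand, GRCm38) lies in an intron of Rnf144a, and its 19 bases were found in no other annotated transcript. The search was of exact matches in annotated transcripts and not of the genome, so it cannot show that the reads came from this locus.

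The libraries held 218256 to 681286 miRNA counts. These were 0.849% to 2.61% of the library tags, the total per library implied by the authors' RPM (reads per 1e+06) values. miR-122, miR-192, miR-194 and miR-148a, the hepatocyte markers, took 25.1% to 42.3% of miRNA counts in each library, and all 5 listed forms had counts. Endothelial markers (miR-126a, 2 of 2 with counts) took 3.75% to 7.27%. Muscle markers (3 of 3 with counts) reached 0.59% in flox chow replicate 3, the shallowest library, against at most 0.0277% elsewhere. Epithelial markers (4 of 4 with counts) reached 0.296% in KO HFFC replicate 2 and 0.821% in KO HFFC replicate 3, against at most 0.00402% elsewhere. This last list was drawn up after its entries had been seen high in knockout libraries of these data. Its high share there is therefore no independent evidence of epithelial cells. The part of these libraries' other cells in the results below was not tested beyond leaving each library out. In exosomes, fewer vesicles of a cell type and less miRNA per vesicle cannot be told apart.

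The late entries were a small part of the cargo. Together they had 19131 of 3873973 counts, or 0.494%, and 1 entry, miR-6538, had 14429 of them (75.4%). miR-6538 ranked 36 among the 722 entries by summed count, and the next late entry, miR-5099, ranked 102. The 10 late entries of highest count held 95.9% of the late counts, and the other 89 shared 779 counts (4.07%). The median late entry had 4 counts over all 9 libraries, against 9 for the 27 entries of the Sfmbt2 family (miR-297, miR-466, miR-467 and miR-669, a rodent cluster in an intron of Sfmbt2), 42 for the 465 remaining miRBase-named entries and 15 for the 131 predicted ones. A single count in a single library was all that 21 late entries had, and 72 had fewer than 10 counts.

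**Figure D1:**
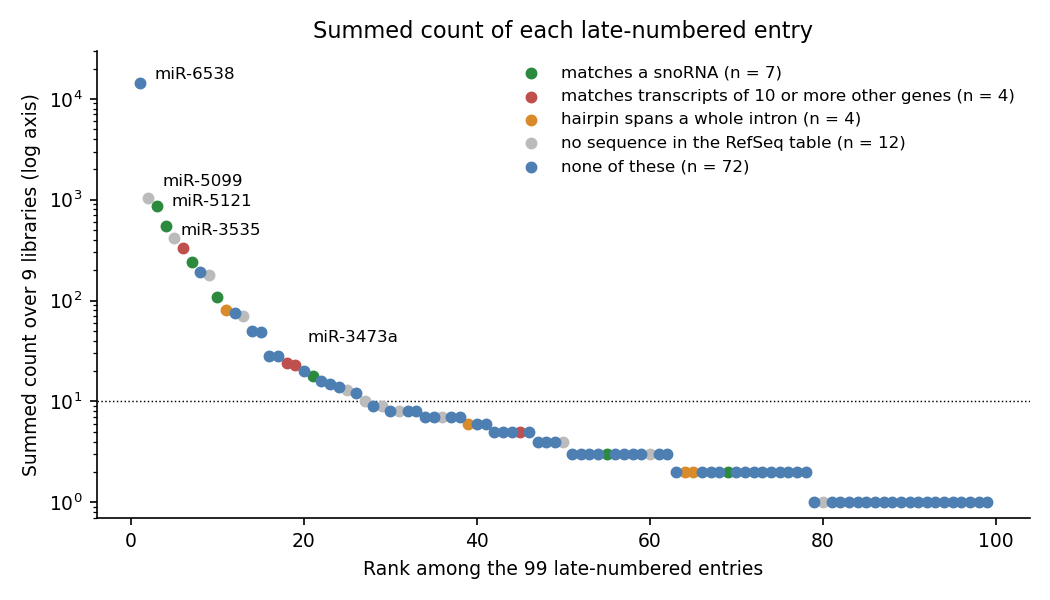
Each point is 1 of the 99 late-numbered entries, placed by rank (horizontal axis) and by its count summed over 9 libraries (vertical log axis), and the colour gives what its sequence matches. miR-6538 stands at 14429 counts, 4 of the 10 highest entries match a snoRNA, and 72 entries lie below the dotted line at 10 counts.

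Detection was sparse and depended on the library. Only 11 late entries had a count in all 9 libraries, namely the 10 of highest count and miR-2137. Another 46 entries (46.5%) were seen in 1 library only, against 9 of the 27 Sfmbt2-family entries (33.3%) and 53 of the 465 remaining miRBase-named entries (11.4%). A library had between 27 and 41 late entries with a count. The mean was 31.7 ± 5.03 (SD, n = 3) on chow, 34.3 ± 7.02 in floxed HFFC mice and 32.0 ± 3.46 in knockouts. With each library thinned to the smallest total of 218256 counts, the expected numbers were 26.4 ± 2.97, 27.7 ± 2.59 and 27.9 ± 2.33. The ranges overlapped in all 3 pairs of groups, with and without thinning.

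The summed share of the late entries differed more between single libraries than between groups. In flox chow it was 0.341%, 0.350% and 0.528% of miRNA counts in replicates 1 to 3. In flox HFFC it was 0.590%, 0.232% and 0.758%. In KO HFFC it was 0.424%, 0.841% and 0.686%. Both the lowest and the second highest share came from flox HFFC, and the 3 groups overlapped. The group means were 0.406% ± 0.106 (SD, n = 3), 0.527% ± 0.269 and 0.650% ± 0.211, in that order. Within 1 library the 95% Wilson interval was narrow, for example 0.220% to 0.245% for the lowest share and 0.815% to 0.868% for the highest, and it covers counting error only.

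**Figure D2:**
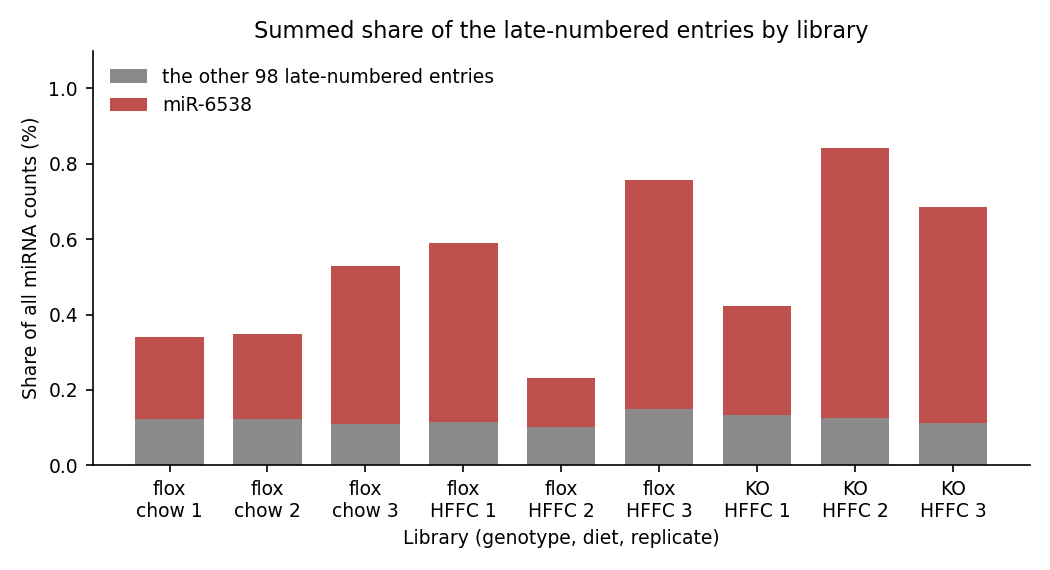
Bars give the share of all miRNA counts (vertical axis, percent) that late-numbered entries took in each of the 9 libraries, split into miR-6538 (upper part) and the other 98 entries (lower part). The lower part stays between 0.101% and 0.149% while the whole bar runs from 0.232% to 0.841%.

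Nearly all of this variation was that of miR-6538. Without it, the late share was 0.119% ± 0.00733 (SD, n = 3) on chow, 0.121% ± 0.0246 in floxed HFFC mice and 0.123% ± 0.0106 in knockouts. The 9 libraries then ran from 0.101% to 0.149%, and the groups overlapped. miR-6538 itself made up 56.5% of the late counts in flox HFFC replicate 2 and 85.1% in KO HFFC replicate 2.

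Bands of miRBase numbers had different makeups. The 16 entries of the 1900s held 2.18% of late counts, the 29 entries of the 3000s held 11.2%, the 8 of the 5000s held 10.2% and the 22 of the 6000s, with miR-6538, held 75.7%. The 3000s summed to between 389 and 569 CPM (counts per 1e+06 miRNA counts) on chow, 446 and 544 in floxed HFFC mice, and 607 and 655 in knockouts. On this scale each knockout library was above each floxed library, by means of 635 ± 25.5 (SD, n = 3) against 506 ± 52.5 on the same diet. The order did not hold under other scalings. After TMM scaling (factors that even out the bulk of the entries) the 3000s lay at 480 to 602 CPM on chow, 436 to 588 in floxed HFFC mice and 547 to 603 in knockouts, and per 1e+06 library tags the groups overlapped too. For the 5000s, mainly miR-5099 and miR-5121, the knockout libraries lay at 362 to 448 CPM, all below the 514 to 614 of flox chow and inside the 304 to 882 of flox HFFC. They were also below flox chow after TMM scaling (328 to 380 against 472 to 756 CPM), but per 1e+06 library tags the ranges of 4.35 to 8.03 and 5.21 to 13.4 overlapped. The 7 entries numbered 8000 or higher had only 29 counts in all. They stood at 0 to 2.94 CPM on chow, 9.92 to 27.3 in floxed HFFC mice and 3.26 to 6.55 in knockouts. Flox chow replicates 1 and 3 had a count of 0, which allows up to 6.18 and 13.7 CPM. Per 1e+06 library tags the knockout and chow ranges of these 7 entries overlapped (0.0392 to 0.118 and 0 to 0.0766), and the floxed HFFC range was 0.161 to 0.437. These sums and their other scalings were read out after their values were seen and carry no test.

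Differences between groups were tested on single entries with edgeR's quasi-likelihood test over the whole table. Of 722 entries, 248 passed the filter on low counts, among them 10 of the 99 late entries (10.1%), 3 of the 27 Sfmbt2-family entries (11.1%) and 205 of the 465 remaining miRBase-named entries (44.1%). The 10 were miR-6538, miR-5099, miR-5121, miR-3535, miR-3470a, miR-3470b, miR-3068-5p, miR-3074-2-3p, miR-1948-3p and miR-3084-5p. The median SE of a log2 fold change was 0.68 for these 10 in each comparison, and 0.55 to 0.56 for all 248, so the absence of calls below does not show that levels were alike.

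**Figure D3:**
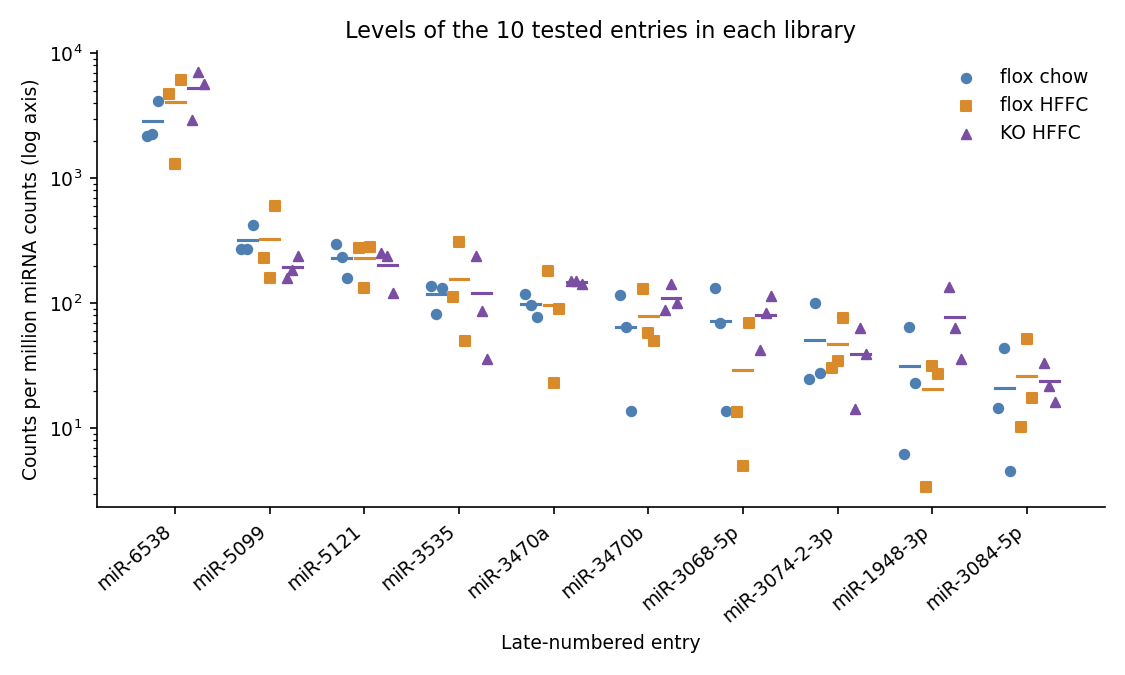
Points give CPM (counts per 1e+06 miRNA counts, vertical log axis) of the 10 tested late-numbered entries in each library, with flox chow as circles, flox HFFC as squares and KO HFFC as triangles, and short lines mark group means. The groups overlap for most entries, while the 3 knockout values of miR-3470a lie close together at 143 to 151 CPM.

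The first comparison asked which late entries differ with the HFFC diet in floxed mice. No late entry passed the threshold, and 9 of the 10 tested entries had log2 fold changes within their SE. By edgeR, 0 of 10 late entries had an adjusted p under 0.05, as did 0 of all 248 (0%), and 0 of 10 had an unadjusted p under 0.05, against 11 of 248 (4.44%). limma-voom also gave 0 of 10 unadjusted, and DESeq2, which kept low counts, gave 1 of 99. The shares over all entries by these other tools are not given here, so their counts have no background to be read against. Log2 fold changes were positive for 4 of the 10 and negative for 6, with a median of −0.02, the same as over all 248. On the TMM scale none of the 10 was higher in every HFFC library than in every chow library (4.84% of all 248) and none was lower (3.63%).

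miR-6538 was measured at 2177, 2272 and 4179 CPM on chow, 4753, 1311 and 6095 in floxed HFFC mice, and 2907, 7158 and 5737 in knockouts. The groups overlapped, and flox HFFC alone spanned nearly the whole range. Its log2 fold change on the HFFC diet was 0.41 ± 0.55 (SE, edgeR adjusted p = 0.985), and it was −0.06 without flox HFFC replicate 3. The snoRNA-matching miR-3068-5p had 132, 69.0 and 13.7 CPM on chow, and 13.6, 4.96 and 69.4 in floxed HFFC mice. Its log2 fold change of −1.34 ± 0.90 was the only one of the 10 beyond its SE (edgeR adjusted p = 0.985). One HFFC library was as high as the second chow library, and leaving out that library, replicate 3, gave −3.0 (edgeR adjusted p = 0.639), while leaving out flox chow replicate 1 gave −0.51. The other snoRNA-matching entries had log2 fold changes within their SE. miR-5121 averaged 231 ± 68.3 CPM on chow and 230 ± 84.9 in floxed HFFC mice (SD, n = 3). miR-3535 averaged 118 ± 30.8 and 157 ± 135, the latter spread resting on 309 CPM in flox HFFC replicate 2. miR-3084-5p averaged 21.0 ± 20.5 and 26.3 ± 21.9.

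The second comparison asked which late entries differ with loss of hepatocyte Hsp90β on the HFFC diet. Again none passed the threshold, and miR-1948-3p, miR-3068-5p and miR-5099 had the largest fold changes. By edgeR, 0 of 10 late entries and 0 of all 248 (0%) had an adjusted p under 0.05, and 0 of 10 had an unadjusted p under 0.05, against 20 of 248 (8.06%). Unadjusted counts were 0 of 10 by limma-voom and 1 of 99 by DESeq2, again without a share over all entries. Fold changes were positive for 5 and negative for 5, with a median log2 of −0.13, against −0.03 over all 248. Of the 10 tested entries, on the TMM scale, none was higher in every knockout library than in every floxed HFFC library (6.85% of all 248) and none was lower (7.26%). In unscaled CPM miR-1948-3p was higher in every one, as were the rare miR-3105-3p and miR-3065-5p, and miR-3473a was lower in every one, with 3 and 1 of the 99 late entries against 53 and 12 of all 722.

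miR-1948-3p had 3.40, 31.4 and 27.3 CPM in floxed HFFC mice and 135, 63.4 and 35.9 in knockouts, after 6.18, 64.6 and 22.9 on chow. All 3 knockout values were above those of flox HFFC in the raw scale, but on the TMM scale the ranges overlapped, and in chow 1 library was as high as the second knockout library. Its log2 fold change against flox HFFC was 1.64 ± 0.88 (SE, edgeR unadjusted p = 0.0866, adjusted p = 0.671), and it was 0.93 without KO HFFC replicate 1. The other arm, miR-1948-5p, had 70 counts over 9 libraries against 180 for miR-1948-3p, and with 3.40, 44.7 and 2.48 CPM in floxed HFFC mice and 16.6, 0.0 and 22.8 in knockouts it did not show the order of miR-1948-3p.

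miR-5099 had 232, 160 and 597 CPM in floxed HFFC mice and 158, 186 and 238 in knockouts. The high mean of flox HFFC, 330 ± 234 (SD, n = 3), rested on replicate 3, and the groups overlapped. Its log2 fold change was −0.96 ± 0.52 (SE, edgeR unadjusted p = 0.0898, adjusted p = 0.675), and without flox HFFC replicate 3 it was −0.31. miR-3068-5p went from the low flox HFFC values above to 42.6, 83.0 and 114 CPM in knockouts, a log2 fold change of 1.26 ± 0.91 (edgeR adjusted p = 0.750), which was 0.65 with flox HFFC replicate 2 left out and 2.85 with replicate 3 left out. The KO HFFC mean of 79.9 ± 35.9 was near the flox chow mean of 71.5 ± 59.1. miR-6538 gave 0.15 ± 0.55 (edgeR adjusted p = 0.954), with means of 5267 ± 2164 against 4053 ± 2467, and its sign turned without flox HFFC replicate 2 (−0.35) or without KO HFFC replicate 2 (−0.16).

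**Figure D4:**
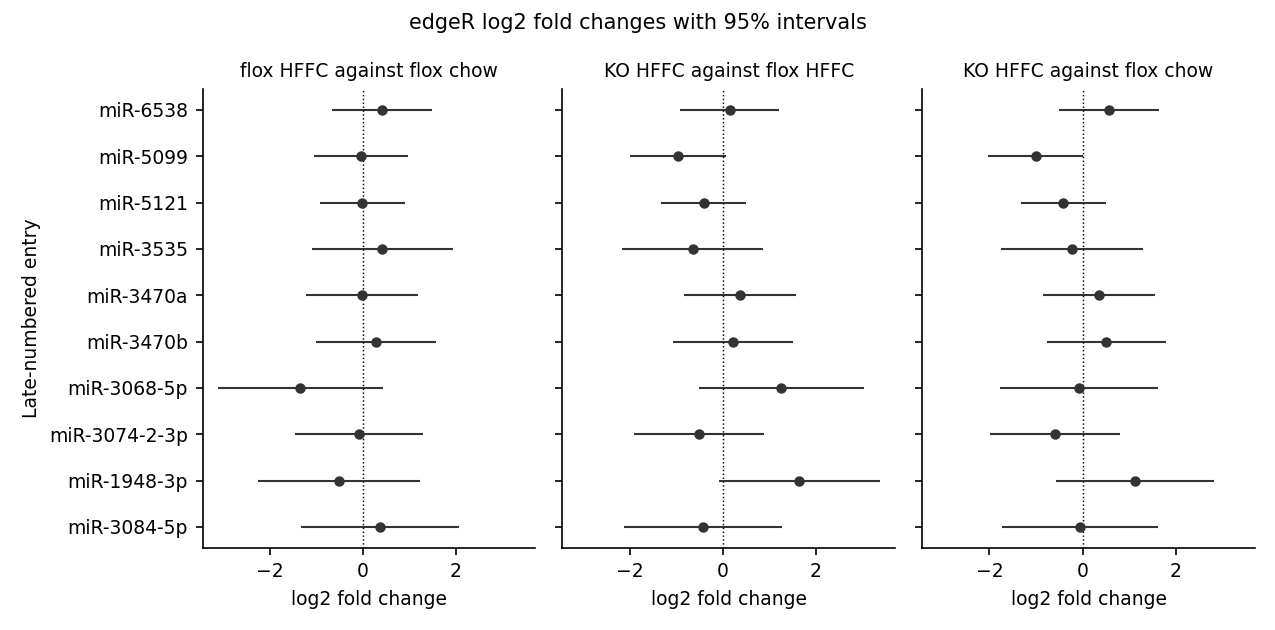
Points are edgeR log2 fold changes (horizontal axis) of the 10 tested late-numbered entries in the 3 comparisons. Bars are approximate 95% intervals (1.96 SE on each side), which are narrower than intervals from the F test itself would be. Every interval includes 0, and those of miR-5099 (−1.01 ± 0.52 SE) and miR-1948-3p (1.64 ± 0.88 SE) come closest to leaving it out.

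The third comparison set the knockout on HFFC against flox chow, which changes diet and genotype together and shares its libraries with the other comparisons. No late entry passed the threshold, miR-5099 was lower in every knockout library and miR-3470a was higher in every one, the latter in CPM but not per 1e+06 library tags. By edgeR, 0 of 10 late entries and 0 of all 248 (0%) had an adjusted p under 0.05, and 0 of 10 had an unadjusted p under 0.05, against 32 of 248 (12.9%). Unadjusted counts were 0 of 10 by limma-voom and 2 of 99 by DESeq2, again without a share over all entries. Fold changes were positive for 4 and negative for 6, with a median log2 of −0.07, against −0.05 over all 248. The 1 of 10 higher in every library compares with 8.06% of all 248, and the 1 of 10 lower in every library with 9.68%.

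miR-5099 had 272, 270 and 422 CPM on chow, so that each of them was above the highest knockout value of 238. The ranges were also apart after TMM scaling (248 to 519 against 146 to 216 CPM) and per 1e+06 library tags (3.58 to 7.05 against 2.5 to 3.33). The means were 321 ± 86.9 and 194 ± 40.5 (SD, n = 3). The log2 fold change was −1.01 ± 0.52 (SE, edgeR unadjusted p = 0.0773, adjusted p = 0.509), and an exact two-sided permutation test gave p = 0.1, the smallest that 3 against 3 libraries allow.

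miR-3470a, by its name a relative of the B1 piece miR-3470b, had 119, 96.9 and 77.9 CPM on chow, 180, 23.2 and 89.2 in floxed HFFC mice, and 151, 151 and 143 in knockouts. The knockout libraries lay close together at 149 ± 4.38 (SD, n = 3), above all chow libraries and within the wide range of flox HFFC. After TMM scaling the knockout values were 128 to 139 CPM against 89.0 to 127 on chow, and per 1e+06 library tags the ranges overlapped (1.72 to 2.7 and 0.662 to 2.53). The log2 fold change against chow was 0.35 ± 0.61 (SE, edgeR adjusted p = 0.884), and the exact two-sided permutation p was 0.1. miR-3470b itself had 117, 64.6 and 13.7 on chow, 129, 57.9 and 49.6 in floxed HFFC mice, and 87.5, 142 and 101 in knockouts. Since reads of the pair may be split between them, their sum was also formed. It was 163 ± 72.6 CPM on chow, 177 ± 119 in floxed HFFC mice and 259 ± 29.6 in knockouts, where each knockout library (239 to 293) was above each chow library (91.6 to 237), but the ranges overlapped after TMM scaling (220 to 249 and 113 to 251 CPM).

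miR-1948-3p and miR-6538 were the other entries beyond their SE, at 1.13 ± 0.86 and 0.56 ± 0.55 (edgeR adjusted p = 0.676 and 0.815). Single libraries moved both values. miR-1948-3p ran from 0.36 without KO HFFC replicate 1 to 2.1 without flox chow replicate 2, and miR-6538 from 0.18 without flox chow replicate 1 to 1.05 without flox chow replicate 3. miR-6538 averaged 5267 ± 2164 CPM in knockouts and 2876 ± 1129 on chow, with overlapping ranges. miR-3074-2-3p, whose hairpin lies antisense to that of the abundant miR-24-2, averaged 50.7 ± 42.6 on chow, 47.4 ± 25.6 in floxed HFFC mice and 38.9 ± 24.6 in knockouts (SD, n = 3). It had 194 counts against 36414 of miR-24-3p and 1729 of miR-24-2-5p, and the sources used here do not say whether the counting used strand.

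The arms of a hairpin differed in count to very different degrees. A 5p and a 3p entry of the same name were listed for 9 late hairpins, of which 4 had a larger arm over 10-fold above the smaller and 5 had one at most 3.5-fold above it. The larger arm exceeded the smaller 54.0-fold for miR-3084 (108 counts of 5p against 2 of 3p), 13.3-fold for miR-3068 (240 of 5p against 18 of 3p) and 13.3-fold for miR-1981 (80 of 5p against 6 of 3p). miR-1968 had 12 counts of 5p against 1 of 3p. The ratio was 3.5-fold for miR-6964, 2.71-fold for miR-3105 and 2.57-fold for miR-1948, where 3p was the larger, and the arms of miR-3065 and miR-1982 had equal counts. miR-3074-5p, which belongs to both miR-3074 hairpins, had 2 counts against 194 of miR-3074-2-3p (97.0-fold) and 7 of miR-3074-1-3p. These ratios are over all 9 libraries and carry no test.

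miR-3473a was 1 of 4 miRNAs the study singled out from these same libraries, so its values are not independent evidence of a direction. It was rare. Its counts were 0, 0 and 7 on chow, 6, 4 and 7 in floxed HFFC mice, and 0, 0 and 0 in knockouts, 24 counts in all. It was thus counted in every flox HFFC library, in 1 chow library and in no knockout library. It stood at 20.4, 6.62 and 17.3 CPM in floxed HFFC mice, and its highest level of all, 32.1, was in flox chow replicate 3.

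On the HFFC diet, miR-3473a averaged 14.8 ± 7.25 CPM against 10.7 ± 18.5 on chow (SD, n = 3), and an exact two-sided permutation test gave p = 0.8. Between KO HFFC and flox HFFC, pooled counts were 0 against 17. The pooled flox HFFC level was 5.17 times the limit set by reading 0 as 3 counts over the knockout group. With 1 flox HFFC library left out it was 4.32 to 7.38 times that limit. With counting error included, the 95% interval of the pooled ratio of knockout to floxed HFFC reached 0.266. The exact two-sided permutation p was 0.1, the smallest possible. A count of 0 allows up to 6.55 to 9.78 CPM in a knockout library, which is about the level of flox HFFC replicate 2, so in that library the difference was not detectable at this depth. miR-3473a did not pass the filter. Fitted without it, edgeR gave a log2 fold change of −5.74 ± 2.07 (SE, unadjusted p = 0.00558, adjusted p = 0.205) and DESeq2 gave −5.22 ± 2.19 (adjusted p = 0.6). Between KO HFFC and flox chow the permutation p was 1.0 (exact, two-sided), with counts in only 1 chow library. Pooling the counts of each group under Poisson sampling, which leaves out the spread between mice, gave p = 0.0391 (exact binomial test, two-sided) for the diet, 1.98e-05 for the genotype on HFFC and 0.0176 for knockout against chow.

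**Figure D5:**
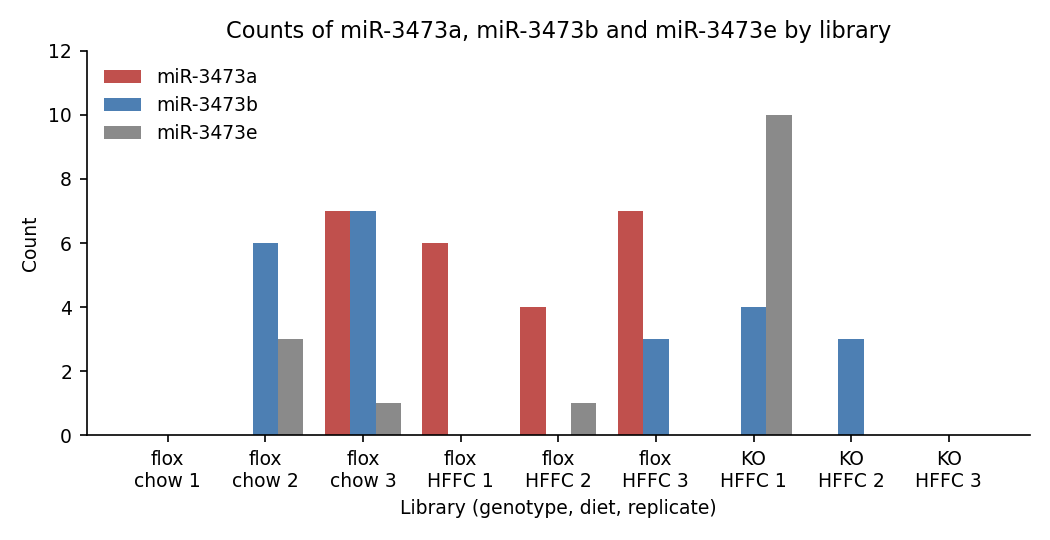
Bars give the counts (vertical axis) of miR-3473a, miR-3473b and miR-3473e in each of the 9 libraries. miR-3473a has 4 to 7 counts in the flox HFFC libraries and in flox chow replicate 3 and none elsewhere, while the knockout libraries hold 7 counts of miR-3473b and 10 of miR-3473e.

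The sister entries did not follow miR-3473a. miR-3473b had 0, 6 and 7 counts on chow, 0, 0 and 3 in floxed HFFC mice, and 4, 3 and 0 in knockouts. miR-3473e had 0, 3 and 1, then 0, 1 and 0, then 10, 0 and 0. Their sum with miR-3473a was 0 to 68.7 CPM on chow, 8.27 to 24.8 in floxed HFFC mice and 0 to 33.1 in knockouts, so that the 3 groups overlapped once entries with shared bases were joined. A count in every flox HFFC library with none in any KO HFFC library was seen for 2 of the 722 entries, miR-3473a and miR-500-3p. A count in every flox HFFC library was seen for 288 entries. The pattern was taken from the counts of miR-3473a after they were seen, so miR-3473a meets it by construction. miR-500-3p is another of the 4 miRNAs that the study singled out from these libraries. The match is therefore no support for either entry.

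A few other rare entries were uneven, and they are named after their values were seen. miR-1983 had no count on chow, 3, 6 and 3 in floxed HFFC mice, and 2, 1 and 13 in knockouts. Pooled, it stood at 4.26 times in floxed HFFC mice and 6.22 times in knockouts the limit that 0 counts over the chow group allow. With counting error included, the 95% intervals of the pooled ratios to chow began at 2.96 and 4.5, and these leave out the spread between mice. Without the filter edgeR gave unadjusted p = 0.014 and 0.00587 (adjusted p = 0.873 and 0.225). The knockout value rested on KO HFFC replicate 3, without which 3 counts remained, 1.57 times that limit. In CPM, 1 of the 99 late entries was higher in every floxed HFFC library than on chow, against 18 of all 722. In knockouts 3 of the 99 were, against 55 of all 722. miR-1949 went the other way, with 2, 5 and 2 counts on chow, 0, 1 and 0 in floxed HFFC mice and none in knockouts. Late entries lower than chow in every library were 1 in floxed HFFC mice and 2 in knockouts, against 21 and 15 of all 722. miR-5123, from an intron of B4galt1, had 5, 0 and 5 counts on chow, 0, 6 and 0 in floxed HFFC mice, and none in knockouts. Without the filter its log2 fold change in knockout against chow was −5.40 ± 2.24 (SE, edgeR adjusted p = 0.339). miR-2137, from an intron of Zfp185, was present in all 9 libraries at 10.4 ± 7.24 CPM on chow, 11.8 ± 13.4 in floxed HFFC mice and 22.4 ± 4.44 in knockouts (SD, n = 3), but its counts of 2 to 10 per library were too low for the test. miR-3962 differs from let-7g-5p by 1 mismatch over 20 bases and had 2 counts against 281847.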

How the data were processed

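Small RNA from liver exosomes was sequenced in 9 libraries. The authors deposited 1 table with whole-number counts per mature miRNA and RPM values beside them. Multiplying the RPM deposited by the authors by 1 total per library returned the counts to within 0.0514. That total, worked out from counts and RPM, is called library tags here, and which reads it covers was not tested. Known miRNAs were matched to miRBase, and the submitters' processing notes name Bowtie2. Not given in the sources used here are the counting tool, the genome build and any collapse of unique molecular identifiers. For library preparation, the study names a NEBNext kit and exosomal RNA, whereas the labels describe Trizol RNA, a gel cut and adapters with molecular identifiers. The authors' group means were not used, and 0 columns of sample values were unmapped.

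Counts were tested with edgeR 4.0.16 in R 4.3.3 (TMM, filterByExpr at its minimum of 10 counts, quasi-likelihood F test with robust dispersions, 9 libraries in 1 fit, no covariate), with Benjamini-Hochberg adjustment over 248 entries and a threshold of 0.05. The SE is the fold change divided by the root of F. DESeq2 1.42.0 and limma 3.58.1 (voom) were alternatives, as were other scaling, filters, library sets, a block for the replicate number and denominators. Single entries were compared with exact permutation tests of CPM. A count of 0 was read as up to 3 counts, and shares carry 95% Wilson intervals, which cover counting error only. P-values measure the spread between libraries taken as separate mice, except those of the exact binomial test on pooled counts, which leave that spread out. The study used DEGseq, which pools the libraries of a group.

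Members are rows whose name is mmu-miR- with a number of 1900 or higher. Members and lists were chosen with earlier results of these data known. Entries named are miR-3473a, those past the filter, the 10 of highest count, those in all 9 libraries and the other arms of these, and any other was chosen after its values were seen. Sequences and positions come from RefSeq (GRCm38.p6), and matches to transcripts, introns and snoRNAs from the annotation of GRCm38, exact over the whole mature sequence. The authors may have used another annotation. The tests were checked on simulated counts.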

Additional observations from a re-analysis of the deposited data

How the results depend on the processing

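The count of late-numbered entries past the threshold was 0 in all 3 comparisons under every alternative run, with each library left out (0 to 0) and with a cutoff of 3000 for the number. DESeq2 for miR-3473a, and TMM and library-tag scalings of the ranges, were added after the data were seen.

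The summed share, which the main denominator gives as 0.406%, 0.527% and 0.650% (chow, floxed HFFC, knockout), was 0.00654%, 0.00825% and 0.01% of the library tags. It was 0.119%, 0.121% and 0.123% without miR-6538, and 0.547% on chow with miR-122-5p taken out of the denominator. Leaving out 1 library gave 0.346% to 0.439%, 0.411% to 0.674% and 0.555% to 0.763%. With at least 3 counts, 20.3 late entries were detected on chow and 21.3 in floxed HFFC mice. With at least 10 counts the means were 9.0, 9.33 and 11.7.

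The log2 fold change of miR-6538 turned negative in the diet comparison without flox HFFC replicate 3 (range over left-out libraries −0.06 to 0.99), and in the genotype comparison without flox HFFC replicate 2 (−0.35) or KO HFFC replicate 2 (−0.16, highest 0.46). For miR-3473a, pooled counts under Poisson sampling differed by 8.0 CPM for the diet, −13.1 for the genotype and −5.05 for knockout against chow. Each had an unadjusted p under 0.05 by the exact binomial test, which leaves out the spread between mice. The exact permutation tests, which keep that spread, gave p of 0.1 or more in all 3 comparisons. Leaving out libraries moved its diet difference from −1.24 to 14.8 CPM, its genotype difference from −18.9 to −12.0 and its difference between knockout and chow from −16.0 to 0.0, the last without flox chow replicate 3. The causes were not tested.

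With the replicate number as a replicate block, 0 late entries were called in each comparison, and the lowest adjusted p was 0.437 (miR-5099, knockout against chow, log2 fold change −0.94). Same-numbered libraries correlated at −0.13 to 0.36 in their deviations from the group means, and differently numbered ones at −0.49 to 0.41. The labels do not say whether the number marks a pair or a batch, and these correlations cannot settle it. Depth limits the 89 entries that did not pass the filter, for which a count of 0 allows 4.40 to 13.7 CPM in a library.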
